A study of Mus musculus with 2 samples.

Results

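The population described here is the Ncr1+Eomes- cells of mouse visceral adipose tissue (VAT), the cells that carried RNA of Ncr1, the gene of the natural killer receptor NKp46, but none of Eomes or of the killer receptor gene Klra8. Their members were chosen by their own counts. A cell was kept when it had at least 500 gene UMIs (unique molecular identifiers, each standing for 1 captured RNA molecule), at least 200 genes and at most 25% mitochondrial UMIs. It was a member when it had 1 or more Ncr1 UMIs, no Cd3e or Cd3d, no Eomes or Klra8, at most 2 Gzma, fewer than 10 UMIs of the CD4 antibody, fewer than 5 of C1qa, C1qb and C1qc together and at most 1 of Cd79a. By this rule 245 of 25198 cells were members, 87 of 12474 in the NW library and 158 of 12724 in the ABX library.

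Both libraries held CD45+ immune cells, enriched with magnetic beads, from the epididymal fat of wildtype C57BL/6 mice 15 weeks old, given normal water (NW) or antibiotics (ABX). The labels do not name the antibiotics, and the number of mice behind each library is not given in the sources used here. RNA of the whole transcriptome and 10 oligonucleotide-tagged surface antibodies were counted in the same cells. With 1 library per condition no difference between NW and ABX or between populations could be tested against the spread between mice, so values are given with 95% intervals that cover counting error only, exact ones except for the ratio of 2 shares, where a log-normal interval was used.

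NK cells and type 1 innate lymphoid cells (ILC1) together form the group 1 innate lymphoid cells. They share NKp46, NK1.1 and the transcription factor T-bet, and both release interferon gamma. NK cells depend on Eomes, carry perforin and granzymes and recirculate through the blood, whereas ILC1 stay in the tissue, develop without Eomes and are recognised by the collagen-binding integrin CD49a, the chemokine receptor CXCR6, the IL-7 receptor and the death ligand TRAIL. In visceral fat, group 1 innate lymphoid cells are known as an early source of interferon gamma that acts on adipose macrophages.

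A share of the members also held RNA of another lineage, and the main results are therefore given for all members and with these cells left out. Such mixed cells, defined after the data had been seen, had at least 20 UMIs of the MHC class II genes Cd74, H2-Aa, H2-Ab1 and H2-Eb1 together, 100 of the antibody light chain gene Igkc, 4 of the ILC2 gene Il1rl1, 2 of Cd3g or 5 of the endothelial genes Cdh5, Flt1 and Kdr together. They were 20 of the 87 NW members (23%) and 32 of the 158 ABX members (20.3%), against 8 (3.92%) and 11 (5.19%) of the NK cells. Most were high in MHC class II, 15 in NW and 20 in ABX. Of these, 11 NW and 7 ABX cells had Xcr1 or Clec9a, which mark cross-presenting dendritic cells, and 11 and 14 had a single Ncr1 UMI. The killer receptor gene Klrb1c (NK1.1) was seen in 2 of the 15 NW and 12 of the 20 ABX cells. Their median of 9074 UMIs in NW and 5482 in ABX stood above that of all members (3565 and 3243.5). Cell barcodes were shared by the libraries in 371 cases, but no cell was a member in both, and 2 NW and 4 ABX members had a barcode that also occurred in the other library.

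The limits of the rule cut through sparse counts. Ncr1 was at exactly 1 UMI in 41 NW and 58 ABX members, at 2 or more in 46 and 100, and at most 16 and 8. No Gzma (granzyme A) was seen in 79 NW and 152 ABX members. Just outside were 11 NW and 22 ABX cells with 1 UMI of Eomes or Klra8, while the cells above the Gzma limit numbered 19 in each library, of which 2 in NW and 1 in ABX had 3 Gzma UMIs. Cells outside by Cd3e or Cd3d only numbered 43 in NW and 77 in ABX, of which 5 and 15 had 1 UMI. How far T cells without a captured Cd3e or Cd3d UMI entered the members was not tested. On the C1q limit, 8 NW and 4 ABX members had 4 UMIs, and 2 and 6 cells with 5 UMIs fell outside by it. NK cells were taken as the cells that differed by having a UMI of Eomes or Klra8 and no Gzma limit, 204 in NW and 212 in ABX. In these, Eomes was detected in 85.3% of NW and 83.0% of ABX cells and Klra8 in 64.7% and 60.4%, so the lack of both in a member also depended on depth. Median depth was alike in NK cells (3237 and 3235.5 UMIs). Ncr1 itself was found in 1.06% of 5669 C1q-high macrophages (20 or more C1q UMIs) in NW and 2.22% of 4276 in ABX, cells that should lack it and that were deeper (6371 and 5117.5 UMIs). It was found in 1.26% of 1665 and 1.61% of 1672 MHC class II-high cells without C1q.

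The share of Ncr1+Eomes- cells was higher in the ABX than in the NW library, whereas that of NK cells over all cells was 1.64% and 1.67%. In NW the members were 0.697% (0.559 to 0.860) of the library and in ABX 1.24% (1.06 to 1.45), an ABX to NW ratio of 1.78 (1.37 to 2.31). With the mixed cells left out, 67 and 126 members remained, 0.537% and 0.990% of all cells, and the ratio was 1.84 (1.37 to 2.48). NK cells made up 1.64% (1.42 to 1.87) and 1.67% (1.45 to 1.90), a ratio of 1.02 (0.842 to 1.23). Members were thus 29.9% (24.7 to 35.5) of the members and NK cells together in NW and 42.7% (37.6 to 47.9) in ABX, or 25.5% and 38.5% with the mixed cells left out. The other cells of the library moved too. Macrophages were 45.4% of NW cells and 33.6% of ABX cells, and ILC2-type cells (Il1rl1 and Gata3, no Ncr1), the type 2 innate lymphoid cells of fat, stood at 4.97% and 7.69%. Among cells with fewer than 5 C1q UMIs, members were 1.67% of 5206 in NW and 2.28% of 6924 in ABX, and the ratio was 1.37 (1.05 to 1.77). Over the same cells NK cells were 3.92% and 3.06%, a ratio of 0.781 (0.647 to 0.944). Whether more of these cells were present in the fat or fewer of the other cells were captured cannot be told apart from shares. A stray Ncr1 UMI was also more frequent in ABX macrophages (2.22%, against 1.06% in NW). In MHC class II-high cells without C1q the values were 1.26% in NW and 1.61% in ABX. B cells had 0.857% and 1.13%, and ILC2-type cells with or without Ncr1 1.43% and 1.41%. With at least 2 Ncr1 UMIs required of members, the ABX to NW ratio was 2.13. How far stray Ncr1 made up the members was not tested.

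**Figure D1:**
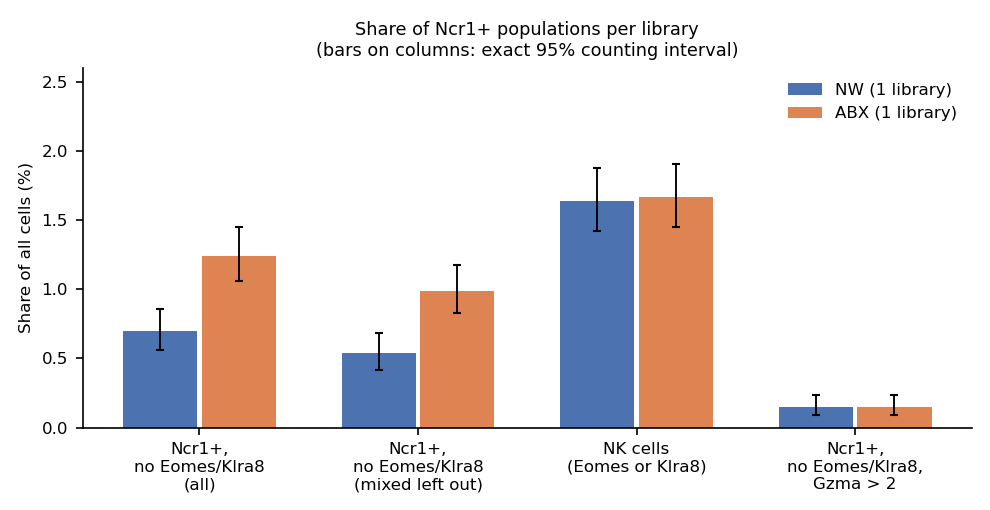
Share of all cells (%, vertical axis) of the Ncr1+Eomes- cells, with and without mixed cells, of NK cells and of the cells above the Gzma limit, with 1 column for each of the NW and ABX libraries and exact 95% counting intervals. The members stand at 0.697% in NW and 1.24% in ABX, the NK cells at 1.64% and 1.67%.

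The label of ILC1-like cells was set beside the genes Itga1 (CD49a), Cxcr6, Il7r, Tnfsf10 (TRAIL) and Cd200r1, none of which the rule used. The members and these markers were chosen with earlier results of these data known, and the NK cells by a UMI of Eomes or Klra8. The comparison is therefore no independent check of the label. Each of the 5 genes was higher in the members than in NK cells of the same library, in NW and in ABX. Levels are the UMIs of a gene per 1000000 UMIs (CPM), summed over the cells of a population. Cxcr6, a receptor that holds lymphocytes in tissues, was at 204 CPM in NW and 283 CPM in ABX members against 25.9 and 24.0 CPM in NK cells, 7.86-fold (4.65 to 14.0) and 11.8-fold (7.22 to 20.4) higher. Il7r, the receptor for the survival cytokine IL-7, stood at 918 and 718 CPM against 147 and 171 CPM, 6.25-fold (5.0 to 7.88) and 4.21-fold (3.44 to 5.18) higher. Itga1 was at 136 and 168 CPM against 30.2 and 61.3 CPM, 4.49-fold (2.65 to 7.87) and 2.74-fold (1.91 to 3.99) higher. For Tnfsf10 the ratios were 4.50 and 4.82, and for Cd200r1, an inhibitory receptor, 5.24 and 3.89. Neither gene was among the higher genes in the count of ILC1 genes below, which required a minimum of UMIs. No interval is given for either gene, so their ratios are less certain than those of Cxcr6, Il7r and Itga1. With the mixed cells left out of both populations, the 5 genes remained higher, Cxcr6 by 25-fold and 18.1-fold, Il7r by 12.2-fold and 5.53-fold and Itga1 by 5.55-fold and 2.84-fold.

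None of the 4 markers given for the population outside the rule was 2-fold apart from NK cells in both libraries. Their median log2 ratio was -0.08 in NW and 0.23 in ABX, and 0.46 and 0.58 with the mixed cells left out. Klrb1c was at 845 CPM in NW and 899 CPM in ABX members against 1306 and 1169 CPM in NK cells, 0.647-fold and 0.769-fold. Without the mixed cells these ratios were 0.966 and 0.952. Klrc1, the inhibitory receptor NKG2A, was at 378 and 399 CPM against 387 and 291 CPM, and at 1.36-fold and 1.82-fold without the mixed cells. Xcl1, the chemokine that draws cross-presenting dendritic cells, stood at 432 and 546 CPM against 466 and 313 CPM, 0.926-fold (0.761 to 1.12) in NW and 1.74-fold (1.47 to 2.08) in ABX, and at 1.39-fold and 1.91-fold without the mixed cells. Cd7, a surface glycoprotein of T and NK cells, was at 551 and 553 CPM against 569 and 556 CPM, or 1.42-fold and 1.22-fold without the mixed cells, and Tbx21, the gene of T-bet, at 174 and 186 CPM against 206 and 183 CPM. All of these were low in ILC2-type cells, at most 10.2 CPM.

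Among all genes with at least 50 UMIs in members and NK cells together in each library, 3918 in number and the rule's genes left out, 55 (1.4%) were at least 2-fold higher in the members in both libraries and 37 (0.944%) at least 2-fold lower. The median log2 ratio over these genes was -0.10 in NW and -0.06 in ABX. Of 15 ILC1 and residency genes among them, 7 were higher and 1 was lower, with medians of 0.88 and 1.09, and with the mixed cells left out 8 of 14 were higher and 2 lower, where 0.744% and 1.07% of all genes were. In all members the higher genes were Itga1, Cxcr6, Il7r, Inpp4b, Gpr183, Tmem176a and Tmem176b, and the lower gene was Tcf7, a transcription factor of early lymphoid cells. Without the mixed cells Ltb and Rgs1 joined the higher genes, Gpr183 was no longer among them, and the transcription factor gene Prdm1 was lower beside Tcf7. None of 19 genes of circulating NK cells was higher and 8 were lower, with medians of -1.69 and -0.74. Of the 8, Klra3, Klra4 and Klra7 are relatives of Klra8, whose absence chose the members. Without the Klra genes 5 of 15 were lower, with medians of -1.65 and -0.44. Both lists, and the population, were drawn up with earlier results of these data known. Of 16 dissociation stress genes 1, Fos, was higher, with list medians of 0.71 and 0.55. With the mixed cells left out none of 15 was, but the list medians were still 0.60 and 0.25, against -0.01 over all genes in both libraries. Of the ILC3 genes, Il22 and Il17a had no UMI in any member.

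Beside Cxcr6 and Il7r, the leading genes above NK cells included the membrane protein genes Tmem176a and Tmem176b and the phosphatase gene Inpp4b. Tmem176a was at 429 CPM in NW and 668 CPM in ABX members against 38.9 and 76.0 CPM in NK cells, 11-fold (7.31 to 17.3) and 8.79-fold (6.64 to 11.8) higher. Tmem176b was at 712 and 1008 CPM against 89.3 and 149 CPM, 7.97-fold (6.03 to 10.7) and 6.75-fold (5.50 to 8.35) higher. Without the mixed cells the ratios were 15.3 and 12.3 for Tmem176a and 12.3 and 8.38 for Tmem176b. Macrophages and ILC2-type cells also carried both genes, so they set the members apart from NK cells alone. Inpp4b, which ends PI3K signals, stood at 435 and 444 CPM against 43.2 and 64.0 CPM, 10.1-fold and 6.94-fold higher, or 19.1-fold and 12.1-fold without the mixed cells. Ramp1, a subunit of the receptor for the neuropeptide CGRP, was 5.24-fold and 5.06-fold higher, and Ahcyl2 6.85-fold and 4.03-fold. Klrb1b, an inhibitory relative of NK1.1, and Lpar6, a lysophosphatidic acid receptor, joined the leading genes once the mixed cells were left out, at 3.38-fold and 2.49-fold and at 3.34-fold and 3.81-fold.

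Tmem176a and Tmem176b are neighbours on opposite strands of chromosome 6, and the stretch between a pair of their starts is shown because both genes were among those leading in this comparison. The window runs from 250 bases before to 50 bases after a start of Tmem176a (RefSeq, GRCm38.p6, plus strand, chr6:48841233-48841532), and is 1 of 2 windows listed for that gene, beside 3 for Tmem176b. Capitals mark the 110 bases from a start of Tmem176b, which is read from the minus strand, at 48841374 to the start of Tmem176a at 48841483.
Tmem176a promoter: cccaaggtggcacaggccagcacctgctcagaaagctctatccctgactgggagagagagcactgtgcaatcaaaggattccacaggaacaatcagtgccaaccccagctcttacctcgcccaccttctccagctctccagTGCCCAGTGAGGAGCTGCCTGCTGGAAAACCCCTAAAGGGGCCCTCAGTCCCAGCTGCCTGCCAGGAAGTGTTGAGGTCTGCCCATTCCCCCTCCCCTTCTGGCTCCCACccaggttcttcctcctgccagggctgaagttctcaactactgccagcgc
This is 1 pair of starts only. In GENCODE M21 (mm10) Tmem176a begins at 48840919 and Tmem176b at 48841496, so the annotated genes overlap there. Whether the counting used strand is not given in the sources used here, and reads within the overlap may count for either gene.

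For other leading genes the ratio depended on the mixed cells. Mpeg1, a pore-forming protein of phagocytes and dendritic cells, was 12-fold and 3.47-fold higher in all members and 2.42-fold and 1.68-fold higher without the mixed cells. Alox5ap, which serves leukotriene synthesis, was at 8.02-fold with and 1.11-fold without them in NW, and at 3.45-fold and 3.49-fold in ABX. Ckb, a creatine kinase, was at 10.2-fold and 4.22-fold, and at 3.65-fold and 5.68-fold without them. Of 6 dendritic cell genes with enough UMIs, Cd74, H2-Aa, H2-Ab1 and H2-Eb1 were higher in all members, and none was higher with the mixed cells left out. Cd74 was at 7.58-fold and 2.59-fold before and at 1.04-fold and 1.05-fold after. The limit for mixed cells counted the UMIs of Cd74, H2-Aa, H2-Ab1 and H2-Eb1, so the fall of these genes was largely set by it.

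Genes of circulating and cytotoxic NK cells were lower in the members. The rule limited Gzma in members but not in NK cells, so cells rich in Gzma were left out on the members' side only. This bears on Prf1 and, below, on Nkg7, Ccl5 and Gzmb. Without the Gzma limit 31 genes were at least 2-fold lower than in NK cells, in place of 37. Prf1, the gene of perforin, was at 92.4 CPM in NW and 85.9 CPM in ABX members against 602 and 491 CPM in NK cells, 0.153-fold and 0.175-fold. Itgam (CD11b), which marks mature NK cells, was at 0.229-fold and 0.179-fold, and Itga2 (CD49b) at 0.318-fold and 0.358-fold. Mast cell chymase Cma1, which these NK cells carried at 52 and 50 UMIs, had no UMI in any member, at most 0.109-fold and 0.0806-fold of NK cells when 3 UMIs are taken for 0. No UMI of Sh2d1a, the adaptor SAP of SLAM receptors, was seen in NW members and 5 were seen in ABX members, against 105 and 89 UMIs in NK cells. Trdc, a T cell receptor delta constant gene that NK cells transcribe, was at 0.135-fold and 0.0959-fold, Myb at 0.124-fold and 0.0879-fold, and Khdc1a at 0.0337-fold and 0.103-fold. Without the mixed cells the highest of these ratios was that of Itga2, at 0.517-fold in NW.

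Among the Ly49 receptor genes, which bind MHC class I, Klra4 was at 2 UMIs in NW and 8 in ABX members against 632 and 680 in NK cells. Klra7 was at 10 and 19 against 372 and 280 UMIs, and Klra3 at 14 and 25 against 169 and 197. Klra9 was at 353 and 725 CPM against 871 and 1038 CPM, 0.405-fold and 0.698-fold. These genes are related neighbours of Klra8, which the rule used. Reads may be shared among them, which was not measured, so their values are uncertain. Nkg7, a granule protein, was at 0.405-fold and 0.530-fold of NK cells and the chemokine gene Ccl5 at 0.461-fold and 0.644-fold. Ly6c2, a Ly6C surface antigen gene, lay above NK cells, 1.81-fold and 1.37-fold. Ifng, the gene of interferon gamma, had 26 UMIs in 17 NW members and 32 in 19 ABX members, 1.04-fold (0.621 to 1.72) and 1.53-fold (0.895 to 2.65) of NK cells.

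A share of cells with a UMI depends on depth, so each cell was also reduced to 1000 UMIs. At this depth Cxcr6 was kept in 20.1% of NW and 22.3% of ABX members, in 1.57% and 2.02% of NK cells and in 1.08% and 1.52% of macrophages, which stand for free RNA. Unthinned, 40.2% and 43.0% of the members had a Cxcr6 UMI. Il7r was kept in 46.7% and 34.0% of members against 8.81% and 10.1% of NK cells and 3.09% and 3.58% of macrophages. For Itga1 the values were 11.7% and 11.9% against 2.40% and 3.99%, with 0.416% and 0.694% in macrophages. Inpp4b stood at 33.7% and 27.3% against 2.74% and 3.54%, and Tmem176b at 46.2% and 58.5% against 7.64% and 10.4%. Prf1 was kept in 11.1% and 8.85% of members against 41.0% and 35.0% of NK cells. Klrb1c (59.7% and 59.1% against 73.0% and 68.2%) and Tbx21 (18.0% and 17.2% against 17.4% and 17.0%) were close in both populations. For this step 2 NW and 7 ABX members with fewer than 1000 UMIs were left out.

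**Figure D2:**
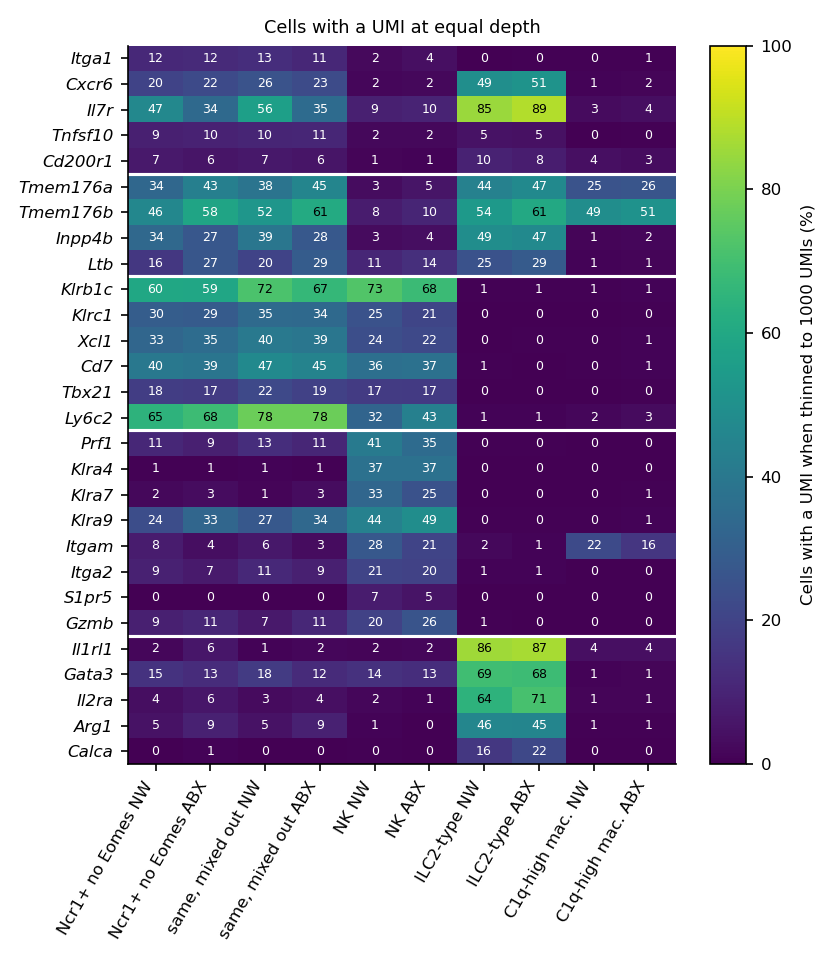
Percentage of cells that keep a UMI of each gene at 1000 UMIs per cell (colour and number in each field) for ILC1, NK and ILC2 genes (rows) in 5 populations of the NW and ABX libraries (columns). Cxcr6 and Il7r are seen in Ncr1+Eomes- and ILC2-type cells and little in NK cells, whereas Prf1 stands at 41.0% of NW and 35.0% of ABX NK cells.

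Single members differed among themselves. At least 1 of the 5 ILC1 genes was seen in 74 of 87 NW members (85.1%) and 126 of 158 ABX members (79.7%), against 26.0% and 32.5% of NK cells, and at least 2 in 49 (56.3%) and 76 (48.1%), against 5.88% and 7.55%. No cell had all 5. With the mixed cells left out, at least 2 were seen in 44 NW (65.7%) and 59 ABX members (46.8%), against 5.61% and 5.97% of NK cells. At least 2 of 7 NK genes (Itga2, Itgam, Klra4, Klra9, S1pr5, Prf1 and Irf8) were seen in 44.8% and 33.5% of members and in 90.7% and 85.8% of NK cells. Klra4 and Klra9 resemble Klra8 of the rule, and with the other 5 genes alone the shares were 27.6% and 18.4% of members and 75.5% and 60.4% of NK cells. At least 2 genes of each of both lists were seen in 24 NW and 29 ABX members. Members with 2 or more ILC1 genes had Inpp4b at 632 CPM in NW and 617 CPM in ABX, those with none at 87.7 and 119 CPM. Inpp4b was at 676 and 636 CPM against 218 and 250 CPM once the mixed cells were left out, where 8 NW and 22 ABX cells had none. The 13 NW and 32 ABX members without any of the 5 genes had median depths of 3338 and 2777 UMIs, against 3571 and 3408 in those with 2 or more, and the part of depth in these differences was not tested.

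A few genes rested on very few cells. The 34 UMIs of granzyme C (Gzmc) in NW came from 2 cells with 20 and 14, and of 52 in ABX 94.2% came from 2 cells. Granzyme B (Gzmb) had 80 UMIs in 15 NW members, of which 73.8% came from 2 cells, and 106 in 35 ABX members, of which 43.4% came from 2. Without the mixed cells Gzmb stood at 0.174-fold and 0.316-fold of NK cells, against 0.530-fold and 0.430-fold with them. Mki67, a marker of dividing cells, had 38 UMIs in 3 NW members and 6 in 2 ABX members. Arg1 was spread more evenly, with 22 UMIs in 11 NW members and 61 in 29 ABX members. At equal depth this arginase was kept in 4.99% and 9.02% of members, 1.13% and 0.387% of NK cells, 0.723% and 0.690% of macrophages and 46.0% and 45.3% of ILC2-type cells.

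Of the surface antibodies only that against CD4 had a part in the rule. CD44, which is raised on antigen-experienced and tissue lymphocytes, had medians of 97 and 75.5 in members (quartiles 59.5 to 130 and 44.2 to 110.5) against 35 and 30 in NK cells (23.8 to 56.2 and 20.8 to 54) and 179 and 147 in ILC2-type cells, all in antibody UMIs per cell. Its gene Cd44 was kept at equal depth in 39.5% and 28.2% of members and 34.3% and 27.3% of NK cells. With the mixed cells left out, the CD44 medians were 89 and 66 in members against 34 and 29 in NK cells. NK-1.1 did not part the populations, with medians of 21 and 20 in members, 26 and 19 in NK cells and 15 and 11 in ILC2-type cells. Macrophages, which lack the receptor, had medians of 35 and 38, so this antibody carried a background above the level in the members. CD25, the high-affinity IL-2 receptor chain, was at 7 and 5 in members against 5 and 4 in NK cells and 36 and 41 in ILC2-type cells. CD69 was at 6 and 4.5 in members against 5 and 3.5 in NK cells and 18 and 9 in ILC2-type cells. Macrophages had medians of 10 and 9 for CD25, 8 and 7 for CD69 and 63 and 59 for CD44.

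**Figure D3:**
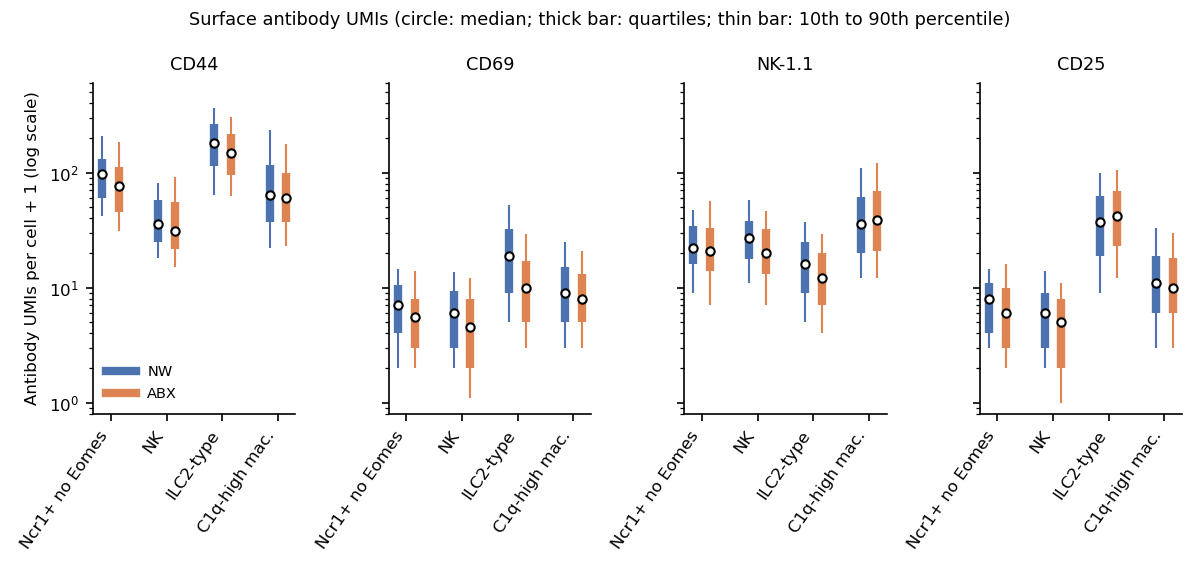
Antibody UMIs per cell plus 1 (log scale, vertical axis) for CD44, CD69, NK-1.1 and CD25 in 4 populations of the NW and ABX libraries, with the median as a circle, the quartiles as a thick bar and the 10th to 90th percentile as a thin bar. The members sit between NK and ILC2-type cells for CD44 (97 in NW, against 35 and 179) and near NK cells for CD25 (7 in NW, against 5 and 36).

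ILC2-type cells, the other innate lymphoid population of the fat, were set beside the members to show what the 2 populations do not share. Of 7266 genes with enough UMIs, 261 (3.59%) were at least 2-fold higher in the members in both libraries and 401 (5.52%) lower, and 3.57% and 6.26% with the mixed cells left out. The Il1rl1 limit for mixed cells was applied to the members but not to the ILC2-type cells, which Il1rl1 had helped to choose. Xcl1, Klrc1, Klrb1c and Cd7 were all higher, as were Ly6c2 by 124-fold and 114-fold, Tbx21 by 91.7-fold and 110-fold and Nkg7 by 28.0-fold and 21.8-fold. Of 9 ILC2 genes, 8 were lower and none was higher. Gata3, the factor that drives type 2 programmes, was at 160 and 147 CPM in members against 1297 and 1202 CPM, though detection of Gata3 and Il1rl1 had chosen the ILC2-type cells. Il2ra, which had no part in either rule, was at 46.2 and 106 CPM against 1319 and 1531 CPM. Calca, a neuropeptide gene of ILC2, had no UMI in NW and 6 in ABX members against 838 and 1843 UMIs. Il13 and Il5 had no UMI in any member. The ILC1 genes Cxcr6 and Il7r were lower in members than in ILC2-type cells, 0.260-fold and 0.357-fold for Cxcr6 and 0.380-fold and 0.258-fold for Il7r. Itga1 was 29.9-fold and 22.0-fold higher. Early response genes that tissue dissociation is known to raise were also lower, 10 of 17, among them Junb at 0.185-fold and 0.238-fold and Jun at 0.331-fold and 0.339-fold.

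Between the conditions, none of the 4 markers of the population outside the rule moved past 1.5-fold, and neither did most genes. Of the 1729 genes that reached 100 UMIs in NW and ABX members together, 75 (4.34%) were at least 1.5-fold higher and 97 (5.61%) at least 1.5-fold lower in ABX members, against 47 of 2856 (1.65%) and 55 (1.93%) in NK cells. With the mixed cells left out, 30 of 1107 genes (2.71%) were higher and 52 (4.7%) lower. Klrb1c was at 1.06-fold (0.922 to 1.23), Klrc1 at 1.06-fold (0.852 to 1.32) and Cd7 at 1.00-fold (0.838 to 1.20). Xcl1 was at 1.26-fold (1.04 to 1.54) in all members but at 0.905-fold (0.733 to 1.12) without the mixed cells. Cxcr6 likewise turned from 1.39-fold (1.05 to 1.85) to 0.775-fold (0.568 to 1.06) and Itga1 from 1.24-fold to 0.865-fold. Of 11 ILC1 and residency genes in all members, 3 (Ltb, Tmem176a and Rora) were at least 1.5-fold higher and none was lower. Without the mixed cells 3 of 9 (Il7r, Rgs1 and Rgs2) were at least 1.5-fold lower and none was higher.

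Many of the genes farthest from 1 between the conditions are known from other lineages. Higher in ABX members were Fabp4, a lipid carrier, with 4 UMIs in NW and 380 in ABX, the antibody genes Jchain (13 and 213), Igkc (293 and 3033) and Ighm (177 and 614), the fatty acid receptor Cd36 (85 and 290) and the macrophage growth factor receptor Csf1r (22 and 84). A single ABX member held 1775 of the Igkc UMIs, and a single one 178 of the Jchain UMIs. Lower were Cd24a, Gm2a, Plbd1, Ctss, Cst3, Marcks, Wdfy4 and H2-DMb1, genes of antigen-presenting and phagocytic cells, at 0.359-fold to 0.518-fold. Igkc also helped to define the mixed cells. With the mixed cells left out, the ABX to NW ratio was 1.55 for Igkc, 1.05 for Ighm, 1.23 for Cd36, 0.863 for Cst3, 0.827 for Ctss and 1.18 for Gm2a. Jchain was then at 1.63, Fabp4 at 8.49 (1.31 to 357) and Csf1r at 2.57 (1.32 to 5.48), but these 3 genes, Cd36, Ctss and Gm2a had fewer than 100 UMIs without the mixed cells and left the comparison. The chromatin remodelling gene Smarcc2 stayed in it, at 3.21 (1.84 to 5.98) against 1.20 in NK cells.

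Il7r was among the lower genes in ABX members without the mixed cells. It was at 1395 CPM in NW and 813 CPM in ABX, 0.583-fold (0.495 to 0.686), and was seen in 74.6% and 49.2% of these cells, or 56.3% and 35.0% at equal depth. In all members the ratio was 0.782 (0.675 to 0.906) and with 2 or more Ncr1 UMIs 0.572, while in NK cells Il7r was at 1.16-fold (0.889 to 1.52). Retnla, a gene of alternatively activated macrophages, was at 0.443-fold in these members and 0.331-fold in NK cells. The chemokine genes Ccl3 (0.525-fold) and Ccl4 (0.514-fold) stood at 0.522-fold and 0.425-fold in NK cells. The early response genes Dusp1 (0.438-fold), Zfp36 (0.522-fold) and Fos (0.561-fold) were at 0.577-fold, 0.825-fold and 0.776-fold in NK cells. Of 14 dissociation stress genes, 5 were at least 1.5-fold lower in these members and none was higher, where 4.7% and 2.71% of all genes were, and their part in the other differences was not tested. Kmt2d, a histone methyltransferase, was at 0.514-fold against 1.11-fold in NK cells.

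On the higher side without the mixed cells stood Klra9 at 1.59-fold (1.27 to 2.0), Fyn, a kinase of lymphocyte receptors, at 1.95-fold (1.35 to 2.88), Tnks2 at 2.01-fold, the pseudogene Rps12-ps3, whose reads may be shared with its parent gene, at 2.13-fold and the mitochondrial genes mt-Nd5 and mt-Nd2 at 1.43-fold and 1.36-fold. In NK cells Klra9 was at 1.19-fold and Fyn at 0.962-fold. The receptor genes Klrd1 (CD94) and Klrb1a were at 1.54-fold and 1.64-fold in members and 0.930-fold and 0.872-fold in NK cells. Mitochondrial UMIs made up 4.49% of all UMIs of NW members and 5.97% of ABX members, or 4.16% and 5.21% without the mixed cells, and 4.51% and 4.82% in NK cells. With mitochondrial and ribosomal protein genes left out of the totals, 88 genes were higher and 93 lower in all ABX members, in place of 75 and 97. None of the cytotoxic genes with enough UMIs passed 1.5-fold in either direction, 8 in all members and 6 without the mixed cells. Over all genes 4.34% were higher and 5.61% lower in all members, and 2.71% and 4.7% without the mixed cells. A list this short cannot be told apart from these shares.

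**Figure D4:**
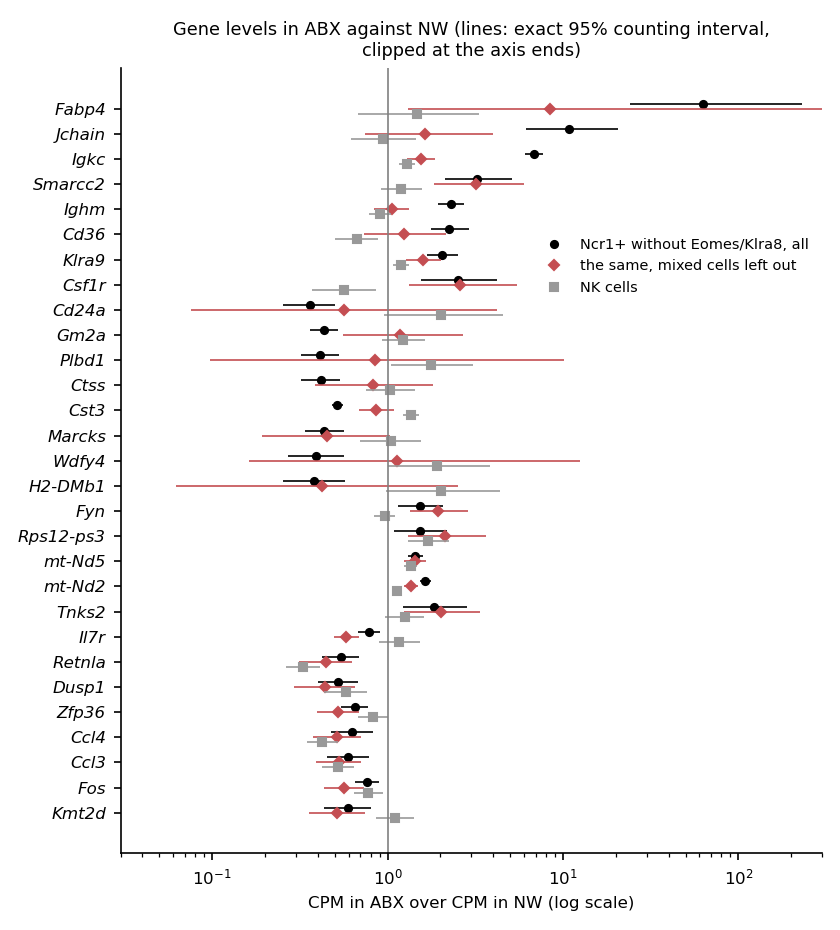
Ratio of CPM in ABX to CPM in NW (log scale, horizontal axis) with exact 95% counting intervals for the genes farthest from 1 in all Ncr1+Eomes- cells (black) or without the mixed cells (red), beside NK cells (grey). Il7r is at 0.583 in the members without mixed cells and at 1.16 in NK cells, whereas Ccl3 stands at 0.525 and 0.522.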

How the data were processed

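The authors prepared 1 library per condition from visceral adipose CD45+ cells on the BD Rhapsody platform, and deposited unnormalized UMI counts per gene and per antibody for each cell barcode. Their methods name the BD Rhapsody WTA Analysis Pipeline 1.8, and the submitters' processing notes name mm10, R 3.6.0 and Seurat 3.0.1. Here counts were summed per library and population and divided by their total (CPM). CPM ratios carry exact conditional binomial intervals, shares Clopper-Pearson and share ratios log-normal intervals, and all assume that UMIs or cells are independent. A count of 0 was set to 3 for a bound. Thinning to 1000 UMIs was hypergeometric. Python 3.11.15, numpy 2.4.6 and scipy 1.17.1 were used, and the interval code was tested on simulated data. Gene totals were 79855126 UMIs in NW and 64801767 in ABX, with medians of 5092 and 3845.5 per kept cell.

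The members, the gene lists and the markers were chosen with earlier results of these data known, and the limits for mixed cells, the count of NK genes without the Klra genes and the NK share of cells low in C1q after the data were seen. No doublet caller was run, so doublets were treated through these limits only. Named genes were the list genes and those with the interval bound farthest from 1, in all members or without the mixed cells (8 per direction between conditions, 10 against NK cells, 5 against ILC2-type cells). Alternatives were the Ncr1, Gzma, depth, mitochondrial and UMI limits, the deepest 5% of members, other totals and denominators, thinning before the rule, mixed cells and shared barcodes. Some items withheld for evaluation are not reported here.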

Additional observations from a re-analysis of the deposited data

Results flagged for a closer look

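For 8 genes the counting intervals of the ABX to NW ratio lay above 1 in the Ncr1+Eomes- cells and below 1 in the NK cells, or the reverse. With 1 library per condition the difference between the populations was not tested. How many genes were searched is not given, so the 8 carry no share over all genes. Between the conditions 1729 genes were compared in members and 2856 in NK cells. Cd74 and H2-Aa, not among the 8, were also at least 1.5-fold lower in ABX members and at least 1.5-fold higher in ABX NK cells. Higher in ABX members and lower in ABX NK cells were the effector and receptor genes Ccl5 (1.31 in members, 0.937 in NK cells), Klri2 (1.62 and 0.775), Xcl1 (1.26 and 0.672) and Trbc2 (1.8 and 0.765), the transcription factor Runx3 (1.42 and 0.825), and the macrophage or endothelial genes Cd36 (2.25 and 0.668) and Csf1r (2.52 and 0.568). Cst3, a gene of dendritic cells and macrophages, was lower in ABX members (0.518) and higher in ABX NK cells (1.36). With the mixed cells left out of the members, Trbc2 stood at 1.56 (1.17 to 2.09), Ccl5 at 1.13 (1.05 to 1.21) and Csf1r, with 11 and 50 UMIs, at 2.57, while the intervals of Klri2, Runx3, Xcl1, Cd36 and Cst3 included 1.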

How the results depend on the processing

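The ABX to NW ratio of the share ran from 1.64 to 2.13 under the alternatives other than the denominator of cells with fewer than 5 C1q UMIs, where it was 1.37. When the rule was applied after thinning to 1000 UMIs, only 53.0% of NW and 60% of ABX cells that met it were members at full depth. The main counts of genes past the fold were 75 higher and 97 lower in ABX, and 55 higher and 37 lower against NK cells. They moved by over 1.5 times with 2 or more Ncr1 UMIs (40 and 50 in ABX, 20 higher against NK cells), without the deepest 5% of members (28 higher against NK cells), with the UMI minimum halved (291 and 267, 126 and 60) or dropped (2032 and 2431, 436 and 169), without the mixed cells (30 and 52, 25 higher against NK cells) and with each cell thinned to 1000 UMIs (10 and 14 against NK cells); fewer genes reached the minimum in the smaller sets, and the cause was not otherwise tested. Among genes whose interval excluded 1, directions turned for Xcl1 between conditions (0.862 with 2 or more Ncr1 UMIs, 0.905 without the mixed cells), for Mpeg1 against NK cells in ABX (0.679 with 2 or more Ncr1 UMIs, 0.960 without the deepest 5%) and, without the mixed cells, for Gm2a (1.18), Wdfy4 (1.13) and Cxcr6 (0.775) between conditions; Itga1, whose interval included 1, went from 1.24 to 0.865. Of 1243 recomputed ratios of single genes, these 7 turned, 156 moved and 1080 did not. Leaving out every member with any UMI of another lineage left 1 NW and 0 ABX cells and gave no value. With 87 and 158 cells, genes of few UMIs could not be compared. No paired analysis was possible because each condition had 1 library.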
